A study of Drosophila melanogaster with 15 samples.

Results

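The genes of 4 fly chemosensory families were followed in nuclear RNA of the mushroom body, where the brain of Drosophila melanogaster forms odour memories. Membership followed the symbol alone, though the genes were chosen with earlier results of these data known. They comprised every listed odorant receptor (Or), gustatory receptor (Gr) and ionotropic receptor (Ir) gene and every pickpocket (ppk) channel gene. The rule took 214 of 17559 listed genes, with 59 Or, 60 Gr, 66 Ir and 29 ppk genes among them. These are genes expected to be silent in Kenyon cells, the intrinsic neurons of the mushroom body, so the questions were how many of them had reads, at what level, and whether age or knockdown of Bap60, which encodes a subunit of the SWI/SNF chromatin remodeller, changed them.

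The libraries came from male flies in 4 groups. The genotype UAS-unc84::GFP/+; R14H06-Gal4/UAS-Bap6032503 was sampled in mature flies (1 to 5 days after eclosion, 5 libraries) and in juvenile flies (0 to 3 h after eclosion, 2 libraries), and carried a hairpin against Bap60. The control genotype UAS-unc84::GFP/+;R14H06-Gal4/UAS-mCherryRNAi was sampled at the same ages (5 mature and 3 juvenile libraries) and carried a hairpin against mCherry, a protein that flies lack. All 15 libraries thus shared the R14H06-Gal4 driver, which expressed both the hairpin and the GFP-tagged nuclear envelope protein UNC84 used to pull nuclei down by the INTACT method. A single Bap60 hairpin line was used, and any nuclei outside Kenyon cells in which the driver is active, or which came along in the purification, enter the same RNA.

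Or proteins are odour receptors that work with the coreceptor Orco in the antenna and maxillary palp. Gr proteins sense sugars, bitter compounds, carbon dioxide and heat, mostly in taste neurons. Ir proteins descend from ionotropic glutamate receptors and pair a tuning subunit with broadly expressed coreceptors such as Ir8a, Ir25a and Ir76b. The ppk genes encode sodium channels of the DEG/ENaC family, several of which serve touch, pain, pheromone taste or water taste. As a rule an olfactory neuron uses 1 or a few of these receptors, and central brain neurons use very few, with Gr43a in a small set of brain neurons as a well-known exception.

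Total gene counts were 17447070 to 37563455 in mature Bap60 RNAi libraries, 18173548 to 70495790 in mature controls, 45547974 and 53143845 in juvenile Bap60 RNAi libraries and 37879789 to 45731087 in juvenile controls. Levels below are CPM (a gene's share of all counted reads, by the usual scaling) with library sizes scaled by TMM. Bap60 itself had 11.2 ± 2.69 CPM in mature Bap60 RNAi nuclei and 17.3 ± 2.61 CPM in mature controls (SD, n = 5 each), which did not overlap (two-sided exact permutation p = 0.00794, the smallest this design allows). In juveniles it had 6.33 ± 1.84 CPM with Bap60 RNAi (n = 2) and 9.49 ± 3.76 CPM in controls (n = 3), which overlapped (exact permutation p = 0.3, where 0.1 is the smallest possible). The 14 Kenyon cell markers were all detected, with median summed levels of 13936 CPM in mature Bap60 RNAi, 15103 CPM in mature control, 9973 CPM in juvenile Bap60 RNAi and 14874 CPM in juvenile control libraries. Markers of other tissues were present too. The muscle sum was 4144 to 23382 CPM over the mature libraries, 15018 and 18255 CPM in juvenile Bap60 RNAi and 8762 to 11945 CPM in juvenile controls. The photoreceptor sum was 5426 to 11775 CPM in mature controls, 3535 and 4309 CPM in juvenile Bap60 RNAi and 5252 to 6031 CPM in juvenile controls. The fat body sum was 2334 to 3125, 533 and 554, and 400 to 457 CPM in those groups. In each of these sums the juvenile groups did not overlap. Glial sums overlapped, at 1313 and 1528 CPM in juvenile Bap60 RNAi and 1502 to 1595 CPM in juvenile controls. The labels do not tie libraries to separate flies, so each p-value is set against the spread between libraries only. The mature count files list an entry for the UNC84 tag that the juvenile files lack, so age and whatever differed between these file sets cannot be told apart.

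Position in the genome separated genes with reads from genes without. A gene was called nested when every base of its body was also covered by other listed genes, partly shared when some bases were, and unshared when none was. Of the 40 chemosensory and ppk genes with no read in any of the 15 libraries, 38 were nested and the other 2 were partly shared. None of the 148 unshared genes was at 0 throughout. Among 40 nested genes 38 had no read (95%), and over all protein-coding genes of the annotation 1832 of 1845 nested genes had none (99.3%), compared with 209 of 7395 unshared genes (2.83%). The strand of the host made little difference, since 744 of 752 protein-coding genes nested in a gene on the same strand and 1022 of 1027 in one on the opposite strand were at 0. The only nested members with reads were ppk11 and ppk16, to which the annotation gives 1 common body. The sources used here do not give the strand setting or the feature counted, and a 0 for a nested gene cannot be read as silence.

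**Figure D1:**
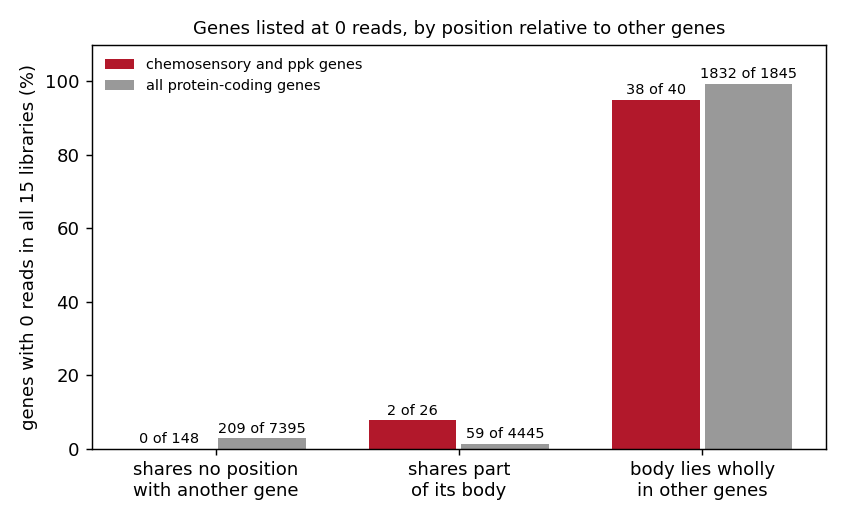
Share of genes with 0 reads in all 15 libraries (y axis, percent), by how much of the gene body is covered by other listed genes (x axis), for the 214 chemosensory and ppk genes (red) and all protein-coding genes (grey). Nested genes of both sets were at 0 in 95% and 99.3% of cases.

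The genes lost to this limit include well-studied receptors. The water taste channel gene ppk28 lies under an antisense RNA, and the pheromone channel gene ppk25 lies within mim and CheB42c. In the sugar receptor cluster Gr64b and Gr64c have 1 common body and Gr64e lies within Gr64d, and Or10a and Gr10a have 1 common body too. Or59b and Or59c lie in CG43795, Gr94a lies in p53, Ir56a lies in the serotonin receptor gene 5-HT1A, and Gr47a, Ir47a and Ir47b lie in the potassium channel gene SLO2. Both members at 0 that were not fully nested, Gr64d and Ir56e, shared 97.8% and 62.4% of their bodies. The remaining 174 genes, 46 Or, 49 Gr, 56 Ir and 23 ppk, are those on which the values below rest.

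Nearly all of the 174 had reads in some library, with a median of 136 reads over the 15 libraries together. In mature Bap60 RNAi libraries 89, 78, 116, 132 and 118 of them had at least 1 read, and in mature controls 147, 170, 112, 106 and 114. In juvenile Bap60 RNAi libraries 98 and 119 had a read, and in juvenile controls 111, 68 and 51. The groups overlapped, and the range within a group was wide. Only 26 of the 214 had a read in every library, and 82 of the 174 stayed under 1 CPM in all 15. The median level of the 174 was 0.0967 CPM in mature Bap60 RNAi and 0.147 CPM in mature control nuclei, against 3.38 and 3.54 CPM for all 14048 genes that were not nested. It was 0.372 CPM in juvenile Bap60 RNAi and 0.343 CPM in juvenile control nuclei, against 3.39 CPM for all such genes in both.

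The number at 1 CPM or more was steady in mature nuclei and variable in juveniles. It was 18, 19, 20, 20 and 18 of 214 in mature Bap60 RNAi libraries and 21, 21, 17, 18 and 20 in mature controls, or 19 ± 1 and 19.4 ± 1.82 (SD, n = 5 each), which differed by less than the spread between libraries. In juvenile Bap60 RNAi libraries 42 and 48 genes reached 1 CPM, and in juvenile controls 70, 25 and 29. The 3 juvenile controls lay both above and below both knockdown libraries, and their mean of 41.3 ± 24.9 fell to 27 without replicate 1. By group mean, 10.3% of the 174 genes reached 1 CPM in mature Bap60 RNAi and 9.77% in mature control nuclei, against 59.0% and 59.9% of all genes that were not nested. The share was 25.3% in juvenile Bap60 RNAi and 21.3% in juvenile control nuclei, against 65.5% and 63.6% of all such genes.

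Juvenile and mature libraries also differed in how reads were spread over these genes. Of the genes with a read, 61.5% to 75.4% in 4 mature Bap60 RNAi libraries and 51.7% in replicate 3 had only 1 to 9 reads, and the range in mature controls was 42.9% to 76.2%. In juvenile libraries it was 2.04% and 6.72% with Bap60 RNAi and 3.60% to 11.8% in controls. A juvenile library therefore had either no read or at least 10 reads for most of these genes, and the median per detected gene was 3 to 13.5 reads in mature and 26.5 to 62 reads in juvenile libraries. The pattern was not limited to these families. Among 2552 other unshared genes at a mean of 0.1 to 1 CPM, 46.2% to 85.7% of those detected in mature libraries had 1 to 9 reads, against 4.29% to 18.6% in juvenile libraries. Ir75a, a receptor for acetic acid, had 0 reads in both juvenile Bap60 RNAi libraries and 180, 0 and 0 reads in juvenile controls. What produced this pattern was not tested.

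**Figure D2:**
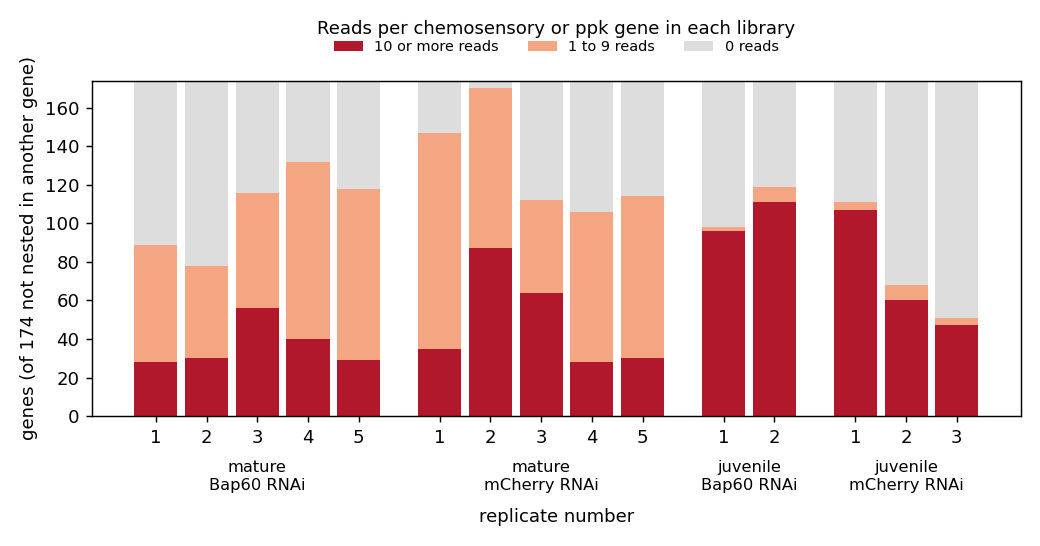
Number of the 174 genes not nested in another gene (y axis) with 10 or more reads, 1 to 9 reads or 0 reads in each library (x axis, by group and replicate). The 1 to 9 class is wide in all 10 mature libraries and at most 8 genes in the 5 juvenile libraries.

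Summed over all 214 genes, the level was 104.5 ± 12.3 CPM in mature Bap60 RNAi and 114.2 ± 10.6 CPM in mature control nuclei, and 238.7 ± 15.3 CPM in juvenile Bap60 RNAi and 303.6 ± 123 CPM in juvenile control nuclei. A single gene, ppk22, made up much of the juvenile sum. Without it the sums were 102.1 ± 11.5 and 104.1 ± 13.0 CPM in mature Bap60 RNAi and mature control nuclei, and 174.4 ± 20.4 and 159.1 ± 96.1 CPM in juvenile Bap60 RNAi and juvenile control nuclei. The last mean rests on juvenile control replicate 1, at 270.1 CPM, since replicates 2 and 3 had 104.7 and 102.4 CPM, within the range of mature controls (90.6 to 123.1 CPM). The 66 Ir genes held the largest share in mature nuclei, with 65.5 ± 6.57 CPM in Bap60 RNAi and 64.1 ± 6.53 CPM in controls. The 59 Or genes summed to 17.6 ± 2.25 and 16.4 ± 2.59 CPM in those groups, and the 60 Gr genes to 8.92 ± 0.867 and 10.4 ± 3.33 CPM. The 29 ppk genes summed to 12.5 ± 3.81 CPM with Bap60 RNAi and 23.3 ± 12.8 CPM in controls, and to 10.1 ± 3.05 and 13.2 ± 1.85 CPM without ppk22. In juveniles the ppk sum was 87.2 ± 3.07 CPM with Bap60 RNAi and 175.5 ± 54.2 CPM in controls. In each family the ranges of the 2 mature groups overlapped.

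Over the 4 group means, 24 genes averaged 1 CPM or more, with 6 Or, 4 Gr, 9 Ir and 5 ppk genes among them. In every one of the 15 libraries 12 genes stood at 1 CPM or more. These were the coreceptor genes Ir25a and Ir76b, the humidity and temperature receptor genes Ir93a, Ir68a and Ir40a, the amine receptor genes Ir41a and Ir76a, the bitter receptor gene Gr66a, the odorant receptor genes Or43b and Or65c, the pain channel gene ppk and the pheromone channel gene ppk29. The third coreceptor gene, Ir8a, was not among them. It had 0.342, 0, 0, 0.174 and 0 CPM in mature Bap60 RNAi and 0.328, 0.196, 0, 0.0556 and 0.538 CPM in mature control libraries.

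Levels between genes were compared per kb. Per kb of exon, averaged over the group means, ppk22 led with 29.9 CPM, followed by Ir41a with 8.05, Ir68a with 4.63, Ir93a with 4.25 and Ir76a with 3.35 CPM. The next 10 were Or43b, Or65c, Gr66a, ppk, ppk29, Or13a, Ir76b, Or82a, Or22c and Ir21a, at 1.94 down to 1.20 CPM per kb of exon. The order changes when the part of the gene body that no other gene covers is used as the length. On that scale Ir41a, whose body spans 104437 bases, had 0.181 CPM per kb, while ppk22 had 25.0, Ir68a 3.49, Ir76a 3.31 and Ir21a 3.00 CPM per kb. For comparison, the median of all genes that were not nested was 1.72 CPM per kb of unshared body in mature Bap60 RNAi and 1.81 in mature control nuclei, against 0.0588 and 0.0828 for the 174 genes.

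**Figure D3:**
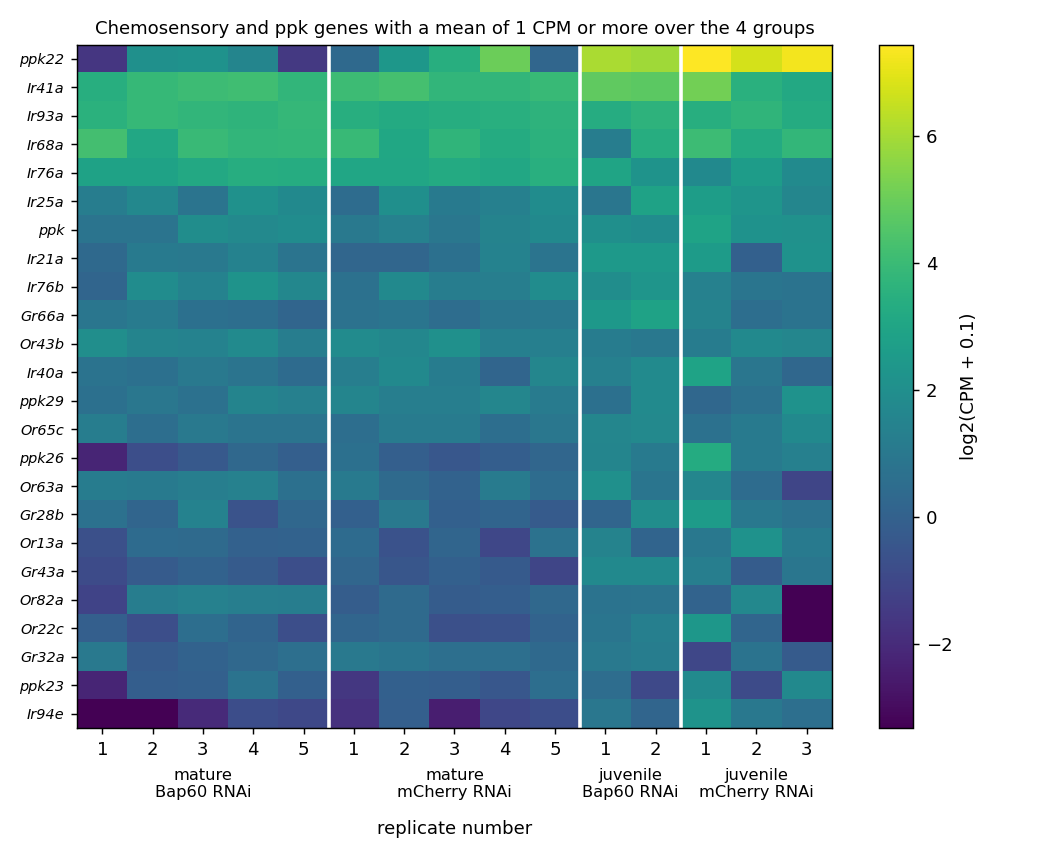
Level of the 24 genes with a mean of 1 CPM or more over the 4 groups (rows, highest mean at the top) in each of the 15 libraries (columns), as log2(CPM + 0.1). Ir93a keeps nearly one shade across libraries, while ppk22 is brightest in the 5 juvenile libraries.

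The Ir genes of humidity sensing differed in how steady they were. Ir93a, a subunit that works with Ir25a in humidity and temperature sensing, had 11.6, 14.8, 13.3, 12.8 and 14.4 CPM in mature Bap60 RNAi libraries and 10.6, 9.48, 10.4, 11.1 and 12.2 CPM in mature controls. It had 10.1 and 12.2 CPM in juvenile Bap60 RNAi libraries and 10.7, 13.3 and 9.88 CPM in juvenile controls. All 4 groups overlapped, and the whole range was 9.48 to 14.8 CPM. Ir68a, the moist receptor subunit, had 18.5, 8.71, 15.5, 13.6 and 13.7 CPM in mature Bap60 RNAi and 15.1, 8.30, 13.0, 9.78 and 12 CPM in mature control libraries. In juveniles it had 2.26 and 10.5 CPM with Bap60 RNAi and 16.4, 9.49 and 13.9 CPM in controls, so that the lowest of 15 values was a juvenile knockdown library. Ir40a, the dry receptor subunit, averaged 1.58 ± 0.246 CPM in mature Bap60 RNAi and 2.38 ± 0.881 CPM in mature control nuclei. It had 2.47 and 3.5 CPM in juvenile Bap60 RNAi and 7.53, 1.78 and 1.09 CPM in juvenile control libraries. Ir25a, the broad coreceptor of these cells, averaged 2.94 ± 1.01 CPM in mature Bap60 RNAi and 2.70 ± 1.14 CPM in mature control nuclei, and had 1.78 and 7.25 CPM in juvenile Bap60 RNAi and 6.21, 4.83 and 2.96 CPM in juvenile control libraries. Both spread most widely among juvenile libraries.

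Among odorant receptors Or43b and Or65c were the most even. Or43b had 3.88, 2.82, 2.63, 3.44 and 2.24 CPM in mature Bap60 RNAi, 3.52, 3.03, 4.17, 2.39 and 2.42 CPM in mature control, 2.17 and 1.88 CPM in juvenile Bap60 RNAi and 2.18, 3.37 and 3.01 CPM in juvenile control libraries. Or65c, which is coexpressed with its neighbours Or65a and Or65b in the antenna, had 2.28, 1.39, 1.97, 1.65 and 1.64 CPM in mature Bap60 RNAi and 1.36, 2.13, 2.11, 1.39 and 1.83 CPM in mature control libraries. In juveniles Or65c had 2.95 and 3.27 CPM with Bap60 RNAi and 1.52, 1.98 and 3.35 CPM in controls. For both genes the 2 mature groups overlapped. The juvenile Bap60 RNAi libraries lay below all others for Or43b and above all mature ones for Or65c. Neither gene was called in any comparison below. Or13a, the receptor of the mushroom odour 1-octen-3-ol, had 1.27, 0.561, 1.04, 0.389 and 1.56 CPM in mature and 1.88, 4.38 and 2.05 CPM in juvenile controls, without overlap. Its log2 fold change of mature over juvenile was -1.52 (SE 0.55, edgeR adjusted p = 0.0553), just outside the threshold, and it was called lower with RLE scaling. The larval odorant receptor gene Or22c and the flower odour receptor gene Or82a had 0 CPM in juvenile control replicate 3 and at least 0.979 CPM in the other 4 juvenile libraries, so a single library can be empty for a gene that its replicates read.

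Some of the better-read genes lie close behind an active gene on the same strand, but most do not. Of the 174 genes, 16 had such a gene within 500 bases upstream at 10 CPM or more. Their median was 0.657 CPM per kb of unshared body, and 7 of the 16 (43.75%) averaged 1 CPM or more. The other 158 had a median of 0.151 CPM per kb, and 17 of them (10.8%) averaged 1 CPM or more. Ir21a, the cooling receptor gene, begins 246 bases after Cda5 (678 CPM), and Ir76a begins 298 bases after SREBP (140 CPM). Ir93a begins 241 bases after the glutamate receptor gene KaiR1D (93.3 CPM), Gr66a 164 bases after BI-1 (57.0 CPM), and Ir25a 34 bases after tank (21.0 CPM). In 6 of the 15 genes highest per kb of exon an active upstream neighbour of this kind was present. Close neighbours did not always come with reads, since Ir8a lies 215 bases after mxc (25.1 CPM) and Gr2a next to futsch (2651 CPM) had means of 0.178 and 0.0529 CPM. Whether reads of these genes began in the neighbour was not tested.

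Groups were compared by the quasi-likelihood F-test of edgeR over 11997 genes that passed a filter on low counts. Adjusted p-values are Benjamini-Hochberg values over all of these, and calls are those under 0.05. The filter passed 132 of the 214 genes, with 31 Or, 32 Gr, 44 Ir and 25 ppk genes. A gene read in one group alone can pass it only through that group.

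In mature flies, Bap60 knockdown changed none of the 132 tested genes by this test, where 0.0583% of all tested genes were called, 0.0167% higher and 0.0417% lower. At an unadjusted p under 0.05 there were 2 (1.52%), Ir93a and Gr57a, against 5.78% of all tested genes. DESeq2 also called 0 of the 132, against 0.392% of all tested genes. The median log2 fold change of the 132 was -0.32, against -0.04 over all tested genes, and that of the 24 genes averaging 1 CPM or more was 0.00. The median of all tested members was -0.08 without mature control replicate 2, -0.16 without mature Bap60 RNAi replicate 1 and -0.48 without mature Bap60 RNAi replicate 3, and -0.04 over the 30 of them that passed the filter when the mature groups were fitted alone. Ir93a, whose values are given above, was higher with Bap60 RNAi in 5 of 5 same-numbered pairs, with a log2 fold change of 0.32 (SE 0.14, adjusted p = 0.833, and 0.945 with the replicate block). A pairing by number is not stated in the labels, so counts of such pairs only describe the values. The lowest among better-read genes was ppk22 at -2.0 (SE 0.94, adjusted p = 0.850, and 1 with the replicate block), which was lower with Bap60 RNAi in 5 of 5 same-numbered pairs. Or82a, a receptor for a flower ester, was the highest of them at 1.04 (SE 0.78, adjusted p = 0.962), with 0.342, 2.27, 2.57, 2.31 and 2.29 CPM in Bap60 RNAi and 0.797, 1.23, 0.783, 0.834 and 1.13 CPM in control libraries. Mature Bap60 RNAi replicate 1 was the lowest of those 10 values and the other 4 knockdown libraries were the highest.

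In juvenile flies, 4 of the 132 were higher with Bap60 RNAi and 0 were lower, against 5.33% of all tested genes called in either direction, 1.54% higher and 3.79% lower. The 4 were Gr66a, Or22b, Or42b and Ir56d. At an unadjusted p under 0.05 there were 21 of the 132 (15.9%), against 21.8% of all tested genes. Beside these, 3 of 14 Kenyon cell markers were lower and 0 higher (median log2 fold change -0.46), and 1 of 11 tested fat body markers was higher and 0 lower (median 1.11). Their part in the calls was not tested. The median log2 fold change was 0.20 over the 132, -0.02 over all tested genes and -0.01 over the 24 genes averaging 1 CPM or more. The median over tested members moved with single libraries, with the filter rerun each time. Without juvenile control replicates 1, 2 and 3 it was 1.51 over 110, 0.06 over 126 and -0.06 over 128 genes. It was -0.25 over 146 genes without juvenile Bap60 RNAi replicate 2. The count was 10 with DESeq2, of which 8 were higher, against 10.1% of all tested genes called.

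Gr66a, at 3L:8305336-8306980 on the minus strand, encodes a receptor of bitter taste neurons that is needed for the response to caffeine. It had 5.26 and 7.16 CPM in juvenile Bap60 RNAi libraries and 2.72, 1.36 and 1.63 CPM in juvenile controls. Both knockdown libraries were above all 3 controls, and above all 10 mature libraries, which had 1.04 to 2.15 CPM. The log2 fold change was 1.70 (SE 0.43, adjusted p = 0.0310). The call was lost without juvenile Bap60 RNAi replicate 1 (adjusted p = 0.0599) or 2 (0.137) and without juvenile control replicate 2 (0.0620) or 3 (0.0530). It was lost too in a fit on the juvenile groups alone (0.194) and with the replicate number as a block (0.113), which ended all 4 juvenile calls. BI-1, the gene 164 bases upstream of Gr66a, was not higher with it, at means of 43.5 CPM in juvenile Bap60 RNAi and 75.7 CPM in juvenile control nuclei.

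The other 3 calls were genes with no read in any juvenile control. Or22b, at 2L:1522697-1524257, lies beside its relative Or22a, and both serve an antennal neuron that senses fruit esters. Or22b had 23 and 82 reads in juvenile Bap60 RNAi libraries and 0, 0 and 0 in juvenile controls, and in mature libraries 18, 0, 38, 12 and 11 reads with Bap60 RNAi and 3, 9, 21, 6 and 8 in controls. It was at least 43.8-fold higher in juvenile Bap60 RNAi than in juvenile control nuclei, counting 3 reads over the control group as the limit of a 0 (adjusted p = 0.0254). The limit covers counting error only.

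Or42b, a food odour receptor that drives attraction to vinegar, had 38 and 14 reads in juvenile Bap60 RNAi libraries and 0 in all 3 juvenile controls, at least 21.7-fold higher (adjusted p = 0.0288). Ir56d, which serves taste neurons for fatty acids and carbonation, had 22 and 29 reads against 0 in all 3, at least 21.3-fold higher (adjusted p = 0.0401). All 3 genes thus had 14 reads or more in both knockdown libraries and none in the controls, which is the juvenile read pattern described above. Or22b lost its call without juvenile Bap60 RNAi replicate 2 (adjusted p = 0.0679), Or42b without juvenile Bap60 RNAi replicate 1 (0.0921) or juvenile control replicate 2 (0.0513), and Ir56d without any of 12 of the 15 libraries, with adjusted p up to 0.0765. A fit on the juvenile groups alone kept none of the 4 and called ppk22 lower in their place.

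The count itself moved with single libraries. It was 1 without juvenile Bap60 RNAi replicate 1, 2 without replicate 2, 2 without juvenile control replicate 3 and 8 without juvenile control replicate 1, the library with 70 genes at 1 CPM. Of all tested genes 2.04%, 3.27%, 4.36% and 8.66% were called in those fits. Uncalled genes among the better-read ones included Ir76b, the coreceptor of salt and amine sensing, with 3.79 and 4.80 CPM in juvenile Bap60 RNAi and 2.54, 1.71 and 1.63 CPM in juvenile control libraries. Its groups did not overlap and its log2 fold change was 1.13 (SE 0.50, adjusted p = 0.192).

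The difference between the knockdown effects at the 2 ages was called for 0 of the 132 genes with edgeR, against 1.55% of all tested genes (1.28% higher and 0.275% lower). At an unadjusted p under 0.05 there were 17 (12.9%), against 16.3% of all tested genes. DESeq2 called 5, Gr66a, Or22b, Or42b and Ir56d lower and Ir75a higher in the mature than in the juvenile effect. It called 4.51% of all tested genes. For Gr66a the difference in log2 fold change was -1.78 (SE 0.54, adjusted p = 0.101). The count was 3 without juvenile control replicate 1, and 1 without juvenile control replicate 2 or juvenile Bap60 RNAi replicate 2. Of all tested genes 4.02%, 1.62% and 1.53% were called in those fits.

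**Figure D4:**
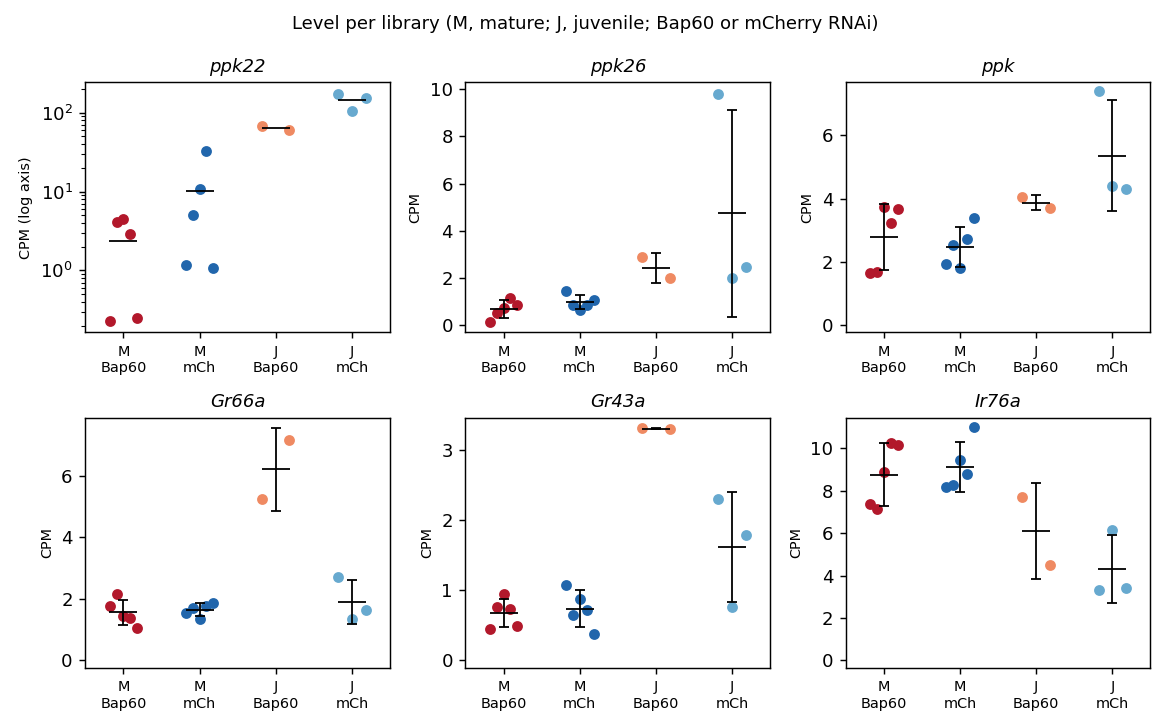
Level of 6 called genes in each library (points, CPM, ppk22 on a log axis) for mature (M) and juvenile (J) Bap60 and mCherry RNAi. Long bars are group means and capped lines are the SD, which is not drawn for ppk22. Both juvenile Bap60 RNAi libraries stand highest for Gr66a and Gr43a, and all 5 juvenile libraries stand highest for ppk22.

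Maturation was tested within each genotype. In controls, 8 of the 132 genes differed between mature and juvenile flies, 5 higher and 3 lower in mature flies, against 22.0% of all tested genes called, 12.2% higher and 9.87% lower. With RLE scaling the split was 5 higher and 5 lower, and DESeq2 called 7 higher and 8 lower. Of all tested genes 22.2% and 26.2% were called in those fits. In Bap60 RNAi flies 8 were called, 0 higher and 8 lower in mature flies, against 34.2% of all tested genes called, 17.8% higher and 16.4% lower. The median log2 fold change of the 132 was -1.12 in controls and -1.53 with Bap60 RNAi, against -0.06 and -0.07 over all tested genes, and -0.54 and -0.78 over the 24 genes averaging 1 CPM or more. In controls the median was 0.12 over the 110 genes tested without juvenile control replicate 1, with 8 higher and 2 lower called, against 22.6% of all tested genes. It was -0.32 over the 132 with the replicate block. With Bap60 RNAi it was -0.94 over the 146 genes tested without juvenile Bap60 RNAi replicate 2. With RLE scaling the median over all genes in Bap60 RNAi flies was -0.18. More chemosensory and ppk genes passed the filter on the juvenile groups alone (121) than on the mature groups alone (30). So did more of all genes (11739 against 9175). The filter asks for reads in as many libraries as the smallest group holds, 2 in the juvenile and 5 in the mature fit, so these numbers are not on equal terms. The medians of the 132 are therefore not independent of that selection. Without the filter, over the 174 genes then tested, they were -0.66 in controls and -1.33 with Bap60 RNAi. With a stricter filter, over 24 genes, they were -0.61 and -0.90. Both comparisons compare libraries whose reads are spread over these genes in the 2 ways shown above, and the part of that in these medians was not tested. Fat body markers, with 3 of 11 higher and 1 lower in mature controls and 2 higher and 5 lower in mature Bap60 RNAi flies, and photoreceptor markers, with 3 of 14 higher and 2 lower in controls and 8 higher and 0 lower with Bap60 RNAi, changed with age too. So did the Kenyon cell markers, with 1 of 14 higher and 0 lower in mature controls and 7 higher and 0 lower in mature Bap60 RNAi flies (median log2 fold change 0.08 and 0.62). The part of these markers was not tested. Nor can fewer cells of a type and less RNA per cell be told apart in pooled nuclei.

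ppk22, at 3R:24857585-24859801 on the minus strand, was the gene with the widest range. It had 0.228, 4.13, 4.43, 2.92 and 0.249 CPM in mature Bap60 RNAi libraries and 1.17, 5.08, 10.7, 32.2 and 1.08 CPM in mature controls. In juveniles it had 67.9 and 60.7 CPM with Bap60 RNAi and 174, 106 and 154 CPM in controls. Every juvenile library stood above every mature one, and within juveniles the controls stood above both knockdown libraries. The log2 fold change of mature over juvenile was -3.86 in controls (SE 1.00, adjusted p = 0.0169) and -4.69 with Bap60 RNAi (SE 1.11, adjusted p = 0.00762), and both calls held in all 22 settings tried. Between juvenile genotypes it was -1.17 (SE 1.25, adjusted p = 0.699).

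Genes on both sides of ppk22 were lower in mature flies too. CG13639 begins 98 bases before it and CAH4, a carbonic anhydrase gene, follows 25 bases after it, both on its strand. CG13639 had 2.09 ± 1.77 CPM in mature Bap60 RNAi, 10.8 ± 13.3 CPM in mature control, 46.9 ± 6.59 CPM in juvenile Bap60 RNAi and 121 ± 19.6 CPM in juvenile control nuclei, and mature control replicate 4 was the highest mature library for both. CAH4, CG13639 and CG13640 on the same strand were lower in mature than in juvenile flies, by log2 fold changes of -3.46, -3.50 and -3.27 in controls (adjusted p = 0.00305, 0.0273 and 0.00706) and -4.72, -4.43 and -4.37 with Bap60 RNAi (adjusted p = 0.000797, 0.0110 and 0.00178). HDAC11, also on that strand beyond CAH4, was higher in mature than in juvenile controls (log2 fold change 0.82, adjusted p = 0.0345). On the opposite strand Nct and CG7016 were lower in mature flies, by log2 fold changes of -0.75 and -1.21 in controls (adjusted p = 0.000238 and 0.000939) and -0.89 and -0.97 with Bap60 RNAi (adjusted p = 0.000115 and 0.00745). Elal, further out on that strand, was not called in controls, at 14.4 ± 3.83 CPM in mature and 19.1 ± 4.07 CPM in juvenile flies (adjusted p = 0.151). It was higher in mature than in juvenile nuclei with Bap60 RNAi (log2 fold change 1.34, adjusted p = 0.000626), and in juveniles it was lower with Bap60 RNAi than in controls (-1.76, adjusted p = 0.00174).

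The other ppk calls were the pain channel subunits ppk and ppk26, which act together in the body wall neurons that sense harsh touch. ppk26 had 1.45, 0.870, 0.655, 0.834 and 1.08 CPM in mature controls and 9.81, 1.98 and 2.45 CPM in juvenile controls, without overlap, a log2 fold change of -2.29 (SE 0.58, adjusted p = 0.00857). It was not called without juvenile control replicate 1, the highest library (log2 fold change -1.17, adjusted p = 0.155). In Bap60 RNAi flies ppk26 had 0.114, 0.505, 0.714, 1.13 and 0.845 CPM in mature and 2.88 and 1.98 CPM in juvenile libraries, a log2 fold change of -1.86 (SE 0.64, adjusted p = 0.0331), lost without any of 5 libraries (adjusted p up to 0.188).

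ppk had 1.92, 2.52, 1.81, 2.72 and 3.39 CPM in mature and 7.39, 4.38 and 4.31 CPM in juvenile controls, again without overlap, a log2 fold change of -1.12 (SE 0.34, adjusted p = 0.0235). The call was lost without juvenile control replicate 1 (adjusted p = 0.111) or mature control replicate 1 (0.0530) or 3 (0.0701). With Bap60 RNAi its groups overlapped, at 2.80 ± 1.05 CPM in mature (n = 5) and 3.87 ± 0.245 CPM in juvenile nuclei (n = 2), and it was not called (log2 fold change -0.47, SE 0.39, adjusted p = 0.363).

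Ir76a was the only better-read gene called higher in mature controls. It lies at 3L:19799278-19803427 and serves antennal neurons that sense amines. It had 8.16, 8.25, 9.46, 8.78 and 11.0 CPM in mature and 3.33, 6.14 and 3.42 CPM in juvenile controls, without overlap, a log2 fold change of 1.09 (SE 0.25, adjusted p = 0.00459) that was called in all 22 settings. In Bap60 RNAi flies it had 7.36, 7.16, 8.88, 10.3 and 10.1 CPM in mature and 7.70 and 4.49 CPM in juvenile libraries, which overlapped. SREBP, 298 bases upstream, averaged 155 CPM in mature and 133 CPM in juvenile controls.

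The other 4 genes higher in mature controls, Or22b, Or42b, Ir56d and Gr8a, had no read in any juvenile control. Gr8a is a receptor for the plant toxin L-canavanine. It had 14, 18, 27, 3 and 2 reads in mature controls, at least 16.2-fold higher than in juvenile controls (adjusted p = 0.0365), and its call was lost without any of the 3 juvenile controls or of mature controls 1, 2 and 3 (adjusted p up to 0.0740). Or42b had 6, 11, 36, 5 and 1 reads (at least 14.9-fold, adjusted p = 0.0114), Ir56d 6, 15, 22, 5 and 5 reads (at least 13.4-fold, adjusted p = 0.0156), and Or22b was at least 11.9-fold higher (adjusted p = 0.0157). None of these 3 calls was lost by leaving out a library, but Or42b was lost in a fit on the control groups alone (adjusted p = 0.0505), and Ir56d (0.0618) and Or22b (0.0623) with the replicate block. Or22b, Or42b and Ir56d are the genes called higher in juvenile Bap60 RNAi than in juvenile control nuclei above, and both comparisons rest on the same 3 control libraries.

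In Bap60 RNAi flies the genes lower at maturity were Gr66a, Gr43a, Gr57a, Gr59d, Ir21a, Ir68b, ppk22 and ppk26. Gr66a had 1.77, 2.15, 1.46, 1.39 and 1.04 CPM in mature and 5.26 and 7.16 CPM in juvenile libraries, a log2 fold change of -1.99 (SE 0.38, adjusted p = 0.00082). Gr43a, the fructose sensor that also monitors sugar inside the brain, had 0.456, 0.758, 0.942, 0.740 and 0.497 CPM in mature and 3.31 and 3.30 CPM in juvenile Bap60 RNAi libraries, a log2 fold change of -2.27 (SE 0.58, adjusted p = 0.00619). The juvenile libraries were the highest for both genes without overlap, and both calls held in all 22 settings.

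In controls neither of these was called. Gr66a was at 1.65 ± 0.208 CPM in mature and 1.90 ± 0.716 CPM in juvenile controls. Gr43a had 1.08, 0.645, 0.882, 0.722 and 0.376 CPM in mature and 2.30, 0.768 and 1.79 CPM in juvenile controls, which overlapped (log2 fold change -1.12, SE 0.53, adjusted p = 0.139). The difference between the genotypes in this age effect is the difference of knockdown effects given above, and for Gr43a it was -1.15 (SE 0.82, adjusted p = 0.522).

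Ir21a had 1.20, 1.98, 1.91, 2.66 and 1.64 CPM in mature and 5.37 and 5.45 CPM in juvenile Bap60 RNAi libraries, a log2 fold change of -1.52 (SE 0.51, adjusted p = 0.0288). Its call was lost without either juvenile Bap60 RNAi library (adjusted p = 0.111 and 0.0989) or mature Bap60 RNAi replicate 1 (0.0586) or 5 (0.0559). Cda5 upstream averaged 491 CPM in mature and 984 CPM in juvenile Bap60 RNAi nuclei. In controls Ir21a overlapped, with 0.892 CPM in juvenile control replicate 2 and 5.82 and 4.43 CPM in the other 2.

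Gr57a and Gr59d had no read in any mature Bap60 RNAi library. Gr57a had 19 and 40 reads and Gr59d 22 and 33 reads in juvenile Bap60 RNAi libraries, at least 23.7-fold and 22.1-fold lower in mature ones (adjusted p = 0.0300 and 0.0385). With reads in only 4 and 5 of 15 libraries, these 2 genes passed the filter through juvenile libraries in which they were high. Their calls are therefore not independent of that selection. Ir68b had 2 reads in all mature Bap60 RNAi libraries together and 70 and 100 in juvenile ones (adjusted p = 0.0272). With reads in 6 of 15 libraries and a median of 0 CPM, its call is not independent of the filter either. All 3 calls were lost without either juvenile Bap60 RNAi library, with adjusted p of 0.0590 and 0.0737 for Gr57a, 0.0763 and 0.0783 for Gr59d and 0.0643 and 0.0661 for Ir68b. Leaving out single mature Bap60 RNAi libraries also ended them in most cases.

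The count of 8 in Bap60 RNAi flies moved with single libraries, also with juvenile controls, which are not among the groups compared. Filter, scaling and adjustment were rerun each time. Without juvenile control replicates 1, 2 and 3 the count was 22, 17 and 18, of 110, 126 and 128 genes tested. It was 3 without juvenile Bap60 RNAi replicate 1, 5 without mature Bap60 RNAi replicate 1 or 3, and 4 without mature Bap60 RNAi replicate 5. In controls it ranged between 6 and 12, with 12 when juvenile Bap60 RNAi replicate 2 was left out. Ir41a changed direction in controls, at a log2 fold change of -0.25 with all libraries and 0.63 without juvenile control replicate 1 (adjusted p = 0.0368), since that library had 35.1 CPM and the other 2 juvenile controls 11.3 and 8.92 CPM.

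**Figure D5:**
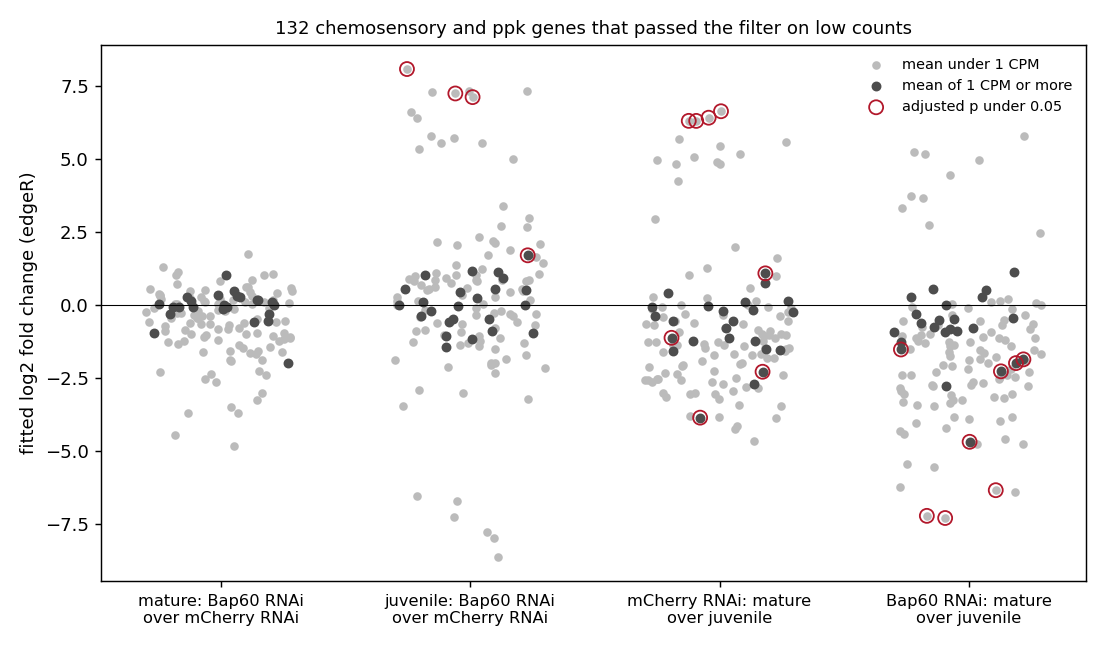
Fitted log2 fold change (y axis) of the 132 tested genes in 4 comparisons (x axis), with dark points for the 24 genes averaging 1 CPM or more, pale points for the rest and rings for calls. Points beyond 6 on either side are genes with at most 2 reads in one of the compared groups, for which the fitted value is no measured fold. No point is ringed in mature flies.

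Other well-studied receptors were mostly under 1 CPM in mature nuclei, and some were higher in single juvenile libraries or groups. Or67d, the receptor of the male pheromone cVA, had 0 to 0.218 CPM in mature Bap60 RNAi and 0.0538 to 0.199 CPM in mature control libraries, and 19 reads in juvenile control replicate 1 with none in the other 4 juvenile libraries. The carbon dioxide receptor pair Gr21a and Gr63a had at most 0.399 and 0.200 CPM in mature Bap60 RNAi and 0.215 and 0.168 CPM in mature control libraries. In juvenile Bap60 RNAi libraries Gr21a had 1.10 and 2.31 CPM and Gr63a 1.42 and 1.35 CPM, while in juvenile controls Gr21a had 0, 0.0991 and 0 CPM and Gr63a 1.91, 0 and 0.419 CPM. Gr5a, the trehalose receptor, and Gr64f, the sugar coreceptor, stayed at or under 0.842 CPM in all 15 libraries. Gr28b, a warmth receptor, averaged 1.38 ± 0.791 CPM in mature Bap60 RNAi and 1.10 ± 0.478 CPM in mature control nuclei, and 2.43 ± 1.95 CPM in juvenile Bap60 RNAi and 3.13 ± 2.44 CPM in juvenile control nuclei.

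Genes that sensory neurons use beside these receptors were read too. Orco, which every Or needs, averaged 2.44 ± 0.906 CPM in mature Bap60 RNAi, 2.37 ± 1.88 CPM in mature control, 1.83 ± 0.00439 CPM in juvenile Bap60 RNAi and 1.58 ± 1.62 CPM in juvenile control nuclei, and was called in no comparison. Of 11 tested sensory channel and accessory genes, 3 were lower and 0 higher in mature than in juvenile flies in each genotype, with TrpA1 and Piezo in both. Of all tested genes 9.87% were lower and 12.2% higher in mature controls and 16.4% lower and 17.8% higher in mature Bap60 RNAi flies, the background for this list and those that follow. TrpA1, a heat and irritant channel gene, had 4.97 ± 1.08 CPM in mature and 9.85 ± 3.71 CPM in juvenile controls (log2 fold change -0.98, adjusted p = 0.00749). Snmp1, Snmp2, wtrw and CheB42a were nested and at 0.

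Of 12 ciliary genes of sensory neurons, 4 were lower and 1 higher in mature than in juvenile controls, and 6 were lower and 0 higher in Bap60 RNAi flies, where 22.0% and 34.2% of all tested genes were called in either direction. Rfx, the regulator of ciliary genes, was lower in both, with 51.3 ± 7.34 CPM in mature and 65.5 ± 0.818 CPM in juvenile controls (log2 fold change -0.35, adjusted p = 0.0381). Their median log2 fold changes were -0.63 in controls and -0.67 with Bap60 RNAi, and neither this list nor the sensory list had a call between genotypes at either age.

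Of 9 tested transcription factors used by chemosensory neurons, 4 were lower and 1 higher in mature than in juvenile controls, and 5 were lower and 2 higher in Bap60 RNAi flies, set against the same 22.0% and 34.2% of all tested genes. acj6 and pdm3, POU factors that select odorant receptors, were among those lower in both. The POU factor nub had 1.31 ± 0.474 CPM in mature Bap60 RNAi, 4.32 ± 2.64 CPM in mature control, 16.8 ± 10.5 CPM in juvenile Bap60 RNAi and 113 ± 34.2 CPM in juvenile control nuclei. It was lower in mature than in juvenile flies in both genotypes, and it was the only factor of the list called between genotypes, lower with Bap60 RNAi in juveniles (adjusted p = 0.0262). Of 13 tested glutamate receptor genes, the relatives of the Ir family, 2 were lower in mature than in juvenile controls (GluRIIA and mGluR) and 0 were called in Bap60 RNAi flies or between genotypes. Their summed level was 808 to 1061 CPM in mature Bap60 RNAi and 686 to 892 CPM in mature control libraries.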

How the data were processed

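The authors deposited 1 file of raw read counts per gene for each library, made with STAR 2.5.3a on BDGP6 and HTSeq 0.7.1 according to the submitters' processing notes. The values are whole counts and were not normalized. Reads outside genes (1.12% to 2.84%), ambiguous reads and the UNC84 entry stayed out of library sizes and tests. Symbols, positions and exon lengths came from Ensembl release 115 on assembly BDGP6.54, which named 17253 of 17559 gene IDs and left 306 without a symbol. Coordinates are from that annotation.

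The tests used edgeR 4.0.16 under R 4.3.3 (filterByExpr with a minimum count of 10 and total of 15, TMM, robust quasi-likelihood fit of 1 mean per group over all 15 libraries), with DESeq2 1.42.0 as an alternative. The code was tested on simulated data. Named genes are those called in any contrast, the 15 highest per kb of exon, the 3 largest and smallest changes per contrast among genes at 1 CPM, and a list of well-studied receptors. Nesting was worked out after the values had been seen. The genes and lists were chosen with earlier results of these data known. Sequences are not shown here. In the mature groups, deviations from the group means correlated at 0.138 to 0.639 for each of the 5 same-numbered pairs. The same number was the best match for replicates 1, 3, 4 and 5 but not for replicate 2, so a pairing by number is not established. The labels state no pairing. Intervals and floors cover counting error only.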

Additional observations from a re-analysis of the deposited data

Results flagged for a closer look

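Single libraries stood apart from the rest of their group in 6 of 98 values checked in the groups of 5 libraries. Chance alone gives about 1 in 20 for values that follow a normal distribution. In mature Bap60 RNAi, Ir68b had 0.0871 CPM in replicate 4 and 0 in the other 4, Or82a had 0.342 CPM in replicate 1 and 2.27 to 2.57 CPM in the others, and Gr93b had 0.211 CPM in replicate 2 and 0 to 0.0571 CPM in the others. In mature controls, replicate 2 was high for Gr59d, with 0.168 CPM against 0 to 0.0469 CPM, and for Gr28b, with 1.94 CPM against 0.753 to 1.00 CPM. The summed ppk level was 45.3 CPM in mature control replicate 4 and 14.1 to 21.5 CPM in the other 4, of which ppk22 made up 32.2 CPM in replicate 4. The values for Ir68b, Gr93b and Gr59d are of a few reads each, so that rate does not apply to them.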

How the results depend on the processing

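Counts at a level threshold moved with it by construction. At 0.5 CPM the mean number of genes was 30.6 in mature Bap60 RNAi, 35.2 in mature control and 85 in juvenile Bap60 RNAi libraries, and at 2 CPM it was 10.6, 10.6 and 20. With unshared genes alone it was 13.4, 13 and 35.5 at 1 CPM, and the summed levels were 70.7, 80.1 and 198.7 CPM. With at least 10 reads required, 36.8 genes in mature Bap60 RNAi and 49.8 in mature control libraries were counted as detected. Without ppk22 the juvenile sums were 174.4 CPM with Bap60 RNAi and 159.1 CPM in controls. The juvenile count of 4 calls was 10 with DESeq2, 1 with a stricter filter, 0 with the replicate number as a block and 1 in a fit on these groups alone, and 1 to 8 when single libraries were left out. The shares of all tested genes were 10.1%, 7.83%, 2.95%, 3.30% and 2.04% to 8.66%. The difference of knockdown effects had 5 calls with DESeq2 and 0 to 3 when single libraries were left out, against 4.51% and 0.755% to 4.02% of all tested genes. In controls maturation gave 15 calls with DESeq2, 5 with the replicate block and 6 to 12 when single libraries were left out. In Bap60 RNAi flies it gave 5 with the block, 23 on these groups alone and 3 to 22 when single libraries were left out. In mature flies no setting called any of these genes, the replicate block included, which left 0. The cause of these shifts was not tested. Outside the mature groups same-numbered libraries did not deviate together, with correlations of -0.216 to 0.0384. Ir41a turned round in controls, at a log2 fold change of 0.63 without juvenile control replicate 1, and -0.57 to 0.63 when each library was left out. RLE and upper-quartile scaling reversed no named gene. The few reads per detected gene in mature libraries (median 3 to 13.5) and the number of juvenile knockdown libraries, 2, limit the precision of these values.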
